A study of Caenorhabditis elegans with 12 samples.

Results

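The late-numbered microRNAs of Caenorhabditis elegans were described over adult life in whole N2 worms. They are the microRNAs whose hairpin precursor carries a number of 300 or higher, without the precursors mir-785, mir-786, mir-788, mir-790, mir-791, mir-793 to mir-796, mir-1018 to mir-1020, mir-1823, mir-1832b, mir-2208, mir-2209, mir-2214, mir-2215, mir-2220, mir-4812 and mir-5593. Each arm of a hairpin (5p or 3p) was counted as a microRNA of its own. The rule used only the names and gave 138 of the 368 mature microRNAs in the table, from 92 precursors. Of the other 230, 187 have a number below 300 and 43 belong to the precursors set aside. The worms were wild type, and 3 libraries were made at each of 4 ages, day 1, day 7, day 14 and day 21 of adulthood. Each library came from a pool of handpicked worms that had been moved to fresh plates to keep them apart from their progeny. Worms that had died, burst or hatched their young internally had been discarded, so the old groups hold the survivors of their cohort. Because whole worms were sequenced, fewer cells of a type and less RNA per cell cannot be told apart in any result.

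MicroRNAs are cut from a hairpin transcript by Drosha and Dicer, and 1 arm of the duplex is usually kept in an Argonaute protein, where it pairs with messenger RNAs and represses them. Numbers are given in the order of discovery. The first worm microRNAs came from genetics and from cloning of abundant small RNAs, among them let-7 and lin-4, which time development. Those with high numbers came mostly from deep sequencing, and many have no known relative outside nematodes and no described function, so that for most of them a place in the genome and a level are what is known.

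Libraries held 5782871 to 16863518 counts, a range of 2.92-fold, and the deepest and the shallowest were both from day 1. On the first principal component of all tested microRNAs, which held 77.9% of the variance, day 14 replicate 1 lay at 16.74, beside day 21 replicates 2 and 3 at 16.37 and 16. Day 21 replicate 1 lay at 9.17, beside day 14 replicates 2 and 3 at 9.03 and 9.58. The labels were kept, and results on these ages are given with and without both libraries. Whether these labels were exchanged was not tested. Markers of other cell types moved with age as well. The miR-35 to miR-42 family, which marks germline and embryos, took 1.98% to 2.53% of the counts of day 1 libraries, 8.18% to 10.3% of those of day 7, 19.9% to 22.3% of those of day 14 and 19.9% to 21.8% of those of day 21, and 9 of its 15 tested arms were higher and 3 lower at day 21 against day 1. The muscle microRNA miR-1-3p was between 5792 and 8846 CPM (counts per 1000000 counts of the library after TMM scaling) at day 21, against 12280 to 13480 CPM at day 1 (log2 fold change -0.75, adjusted p = 0.00678), while its rarer arm miR-1-5p was between 50.6 and 62.1 CPM, against 37.9 to 44.2 CPM (0.39, adjusted p = 0.111). The intestinal miR-60-3p was between 68.6 and 185 CPM at day 21, against 159 to 545 CPM at day 1 (-1.49, adjusted p = 0.00805), and miR-60-5p also fell (-2.44, adjusted p = 0.00163). The glial miR-228-5p was between 19520 and 37970 CPM at day 21, against 14950 to 27400 CPM at day 1 (0.59, adjusted p = 0.0921), while its rarer arm miR-228-3p fell, with 18.6 to 28.9 CPM, against 30.8 to 57.3 CPM (-0.70, adjusted p = 0.0378). The neuronal miR-124-3p was between 11.6 and 16.7 CPM at day 21, against 6.06 to 7.11 CPM at day 1 (1.03, adjusted p = 0.0267), and miR-124-5p was too rare to test. Apart from the rare arm miR-60-5p at day 21, no marker was at 0 in any library, and their part in the results below was not tested.

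Most late-numbered microRNAs were found, but at low counts. Of the 138, 121 (87.7%) had at least 1 count in some library and 68 (49.3%) had at least 1 count in every library. Among the 230 other microRNAs, 182 (79.1%) were seen in every library. A level of at least 10 counts in every library was reached by 33 of the 138 (23.9%) and by 149 of the 230 (64.8%). The median microRNA had 76.5 counts over the 12 libraries, against 3167.5 among the others. Only 7 of the 138 passed 10000 counts over the 12 libraries, against 91 of the 230. A further 29 had 1 to 9 counts in all, and 17 had none, which allows each of these up to 0.0294 CPM over the 102035626 counts of the 12 libraries, by counting error only. The 17 include miR-353, miR-356a, miR-787-5p, miR-1021 and miR-1818, and the 5p arms of mir-4808 and mir-4809, whose 3p arms were among those that changed most with age.

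**Figure D1:**
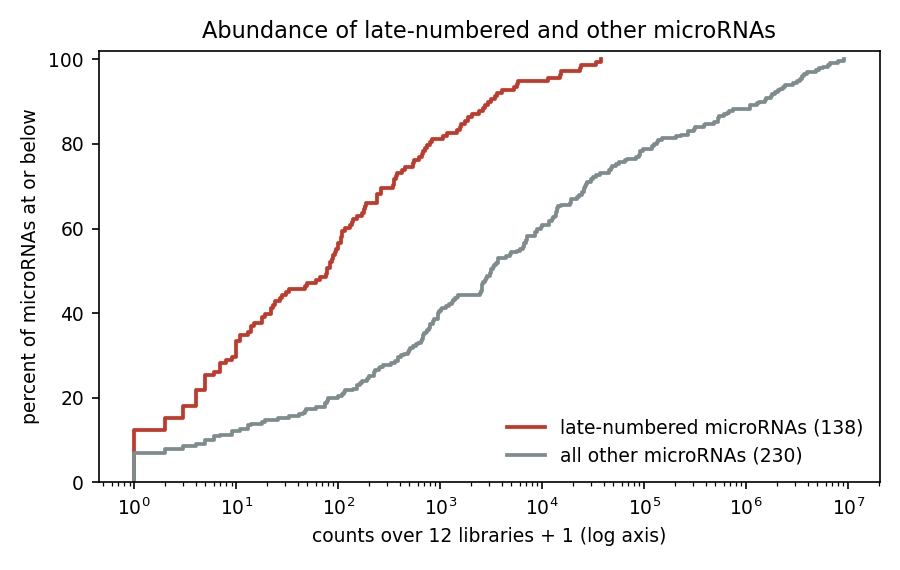
Cumulative percent of microRNAs (y axis) at or below a number of counts summed over the 12 libraries plus 1 (x axis, log scale). The curve of the 138 late-numbered microRNAs lies left of that of the 230 others, with medians of 76.5 and 3167.5 counts.

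The number of late-numbered microRNAs detected did not shift with age beyond the spread of the libraries. Day 1 libraries held 85, 100 and 101 of them, day 7 libraries 88, 90 and 95, day 14 libraries 90, 91 and 93, and day 21 libraries 90, 96 and 98. The lowest number came from the shallowest library and the highest from the deepest. At the smallest library total, day 1 libraries would be expected to hold 85.0 to 91.4, day 7 libraries 84.9 to 92.3, day 14 libraries 88.5 to 91.1 and day 21 libraries 87.9 to 95.2, and these ranges overlap. All 138 together took a very small share of the counts. Their mean share was 0.240% ± 0.00724 on day 1, 0.204% ± 0.00967 on day 7, 0.223% ± 0.0240 on day 14 and 0.222% ± 0.0158 on day 21 (SD, n = 3 each). The 3 libraries of day 7 had 0.197%, 0.201% and 0.215%, all below the 0.232%, 0.241% and 0.246% of day 1, and the older libraries spanned both.

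By number, the counts were concentrated in the lower-numbered hairpins. The 25 microRNAs from mir-1021 to mir-1834 held 40.7% of all late-numbered counts and the 15 from mir-353 to mir-392 held 35%. The 38 from mir-4805 to mir-4938 held 4.75%, with a median of 18.5 counts each. The 24 from mir-5545 to mir-5595 held 9.08%, of which most came from miR-5592-3p with 15315 counts. For 88 of the 92 precursors a gene of the same name was found in the Ensembl annotation of WBcel235, and 26 of these 88 (29.5%) lie on the X chromosome, against 37 of 122 (30.3%) of the other precursors. Of the 88, 46 lie outside protein-coding genes, 24 in an intron on the strand of the host gene, 12 in an intron on the opposite strand and 6 on an exon. A neighbouring microRNA gene lay within 10000 bp of 26 of them.

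The most abundant member was miR-359, from a hairpin on X at 3004291 to 3004400 (plus strand, WBcel235) outside protein-coding genes. It ranked 63rd among all microRNAs, with 311, 723 and 384 CPM at day 1, 402, 326 and 365 CPM at day 7, 370, 422 and 256 CPM at day 14, and 269, 372 and 209 CPM at day 21. The value of 723 CPM in day 1 replicate 2 stands above all other libraries, and the ages overlap. No difference among the ages passed the test (adjusted p = 0.205 over any age). miR-356b-3p, from a hairpin on III, was flatter still. It had 86.9, 110 and 116 CPM at day 1, 117, 101 and 105 CPM at day 7, 112, 110 and 120 CPM at day 14, and 98.0, 100 and 128 CPM at day 21, so that all ages overlapped. Its log2 fold change was 0.06 ± 0.20 (SE) at day 21 against day 1, with an adjusted p of 0.948 over any age.

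The other abundant members did change. miR-355, from a hairpin on II outside protein-coding genes, rose early and stayed high. It had 95.5, 131 and 109 CPM at day 1, 240, 297 and 236 CPM at day 7, 405, 269 and 280 CPM at day 14, and 287, 382 and 381 CPM at day 21. No library of a later age reached down to the day 1 libraries, and the log2 fold change was 1.65 ± 0.24 (SE) at day 21 against day 1 (adjusted p = 2.83e-05). miR-1820-5p, from a hairpin on IV outside protein-coding genes, had 204, 247 and 200 CPM at day 1, 323, 240 and 321 CPM at day 7, 478, 408 and 500 CPM at day 14, and 340, 463 and 537 CPM at day 21. Its day 7 libraries overlapped those of day 1 and all libraries of days 14 and 21 lay above both. Day 21 against day 1 gave a log2 fold change of 1.04 ± 0.23 (adjusted p = 0.000952). miR-1022-5p, from a hairpin on X outside protein-coding genes, had 86.4, 158 and 124 CPM at day 1, 128, 106 and 238 CPM at day 7, 276, 509 and 542 CPM at day 14, and 290, 254 and 286 CPM at day 21. It was highest at day 14, and days 1 and 7 overlapped. Its log2 fold change was 1.85 ± 0.34 at day 14 against day 1 (adjusted p = 0.000309) and 1.17 ± 0.34 at day 21 against day 1 (adjusted p = 0.00653). Without day 1 replicate 1 the day 21 difference was 0.90 and missed the threshold (adjusted p = 0.0596).

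Among the abundant members that fell, miR-787-3p, from a hairpin on X outside protein-coding genes, had 88.4, 133 and 85.1 CPM at day 21, against 161, 244 and 187 CPM at day 1, with no overlap. Its log2 fold change was -0.95 ± 0.25 (SE, adjusted p = 0.00365). miR-5592-3p had 108, 123 and 91.7 CPM at day 21, against 200, 224 and 185 CPM at day 1, and the log2 fold change was -0.91 ± 0.20 (adjusted p = 0.00117). The hairpins mir-5592-1 and mir-5592-2 lie on opposite strands of the same stretch of X, in an intron of aakb-1, which encodes a beta subunit of AMP-activated kinase, and carry the same counts in the table, so the hairpin of origin is uncertain.

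Across ages, 61 of the 138 had enough counts to be tested among the 245 microRNAs of the whole table, and the other 77 did not pass the filter. Each pair of ages was tested with the quasi-likelihood method of edgeR, and a member was called changed at a Benjamini-Hochberg adjusted p under 0.05 over all 245. At day 7 against day 1, 30 of the 61 tested were called, 16 higher and 14 lower, where the whole table had 39.2% called, 21.2% higher and 18.0% lower. At day 14 against day 1, 44 were called, 24 higher and 20 lower, beside a background of 69.0% (34.3% higher and 34.7% lower). At day 21 against day 1, 46 were called, 23 in each direction, beside a background of 71.0% (35.1% higher and 35.9% lower). Among the 61, these are shares of 49.2%, 72.1% and 75.4%, and the background includes the 61. The median log2 fold changes of the 61 were 0.03, 0.12 and 0.18 at days 7, 14 and 21 against day 1, against -0.01, -0.12 and -0.06 over all 245. Without day 14 replicate 1 and day 21 replicate 1, 43 were called at day 14 against day 1 and 47 at day 21 against day 1. Scaling by total counts moved the median of all 245 by -0.11, -0.33 and -0.18 in these comparisons and gave medians of -0.06, -0.17 and -0.05 for the members, so the sign of these medians depends on the scaling.

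**Figure D2:**
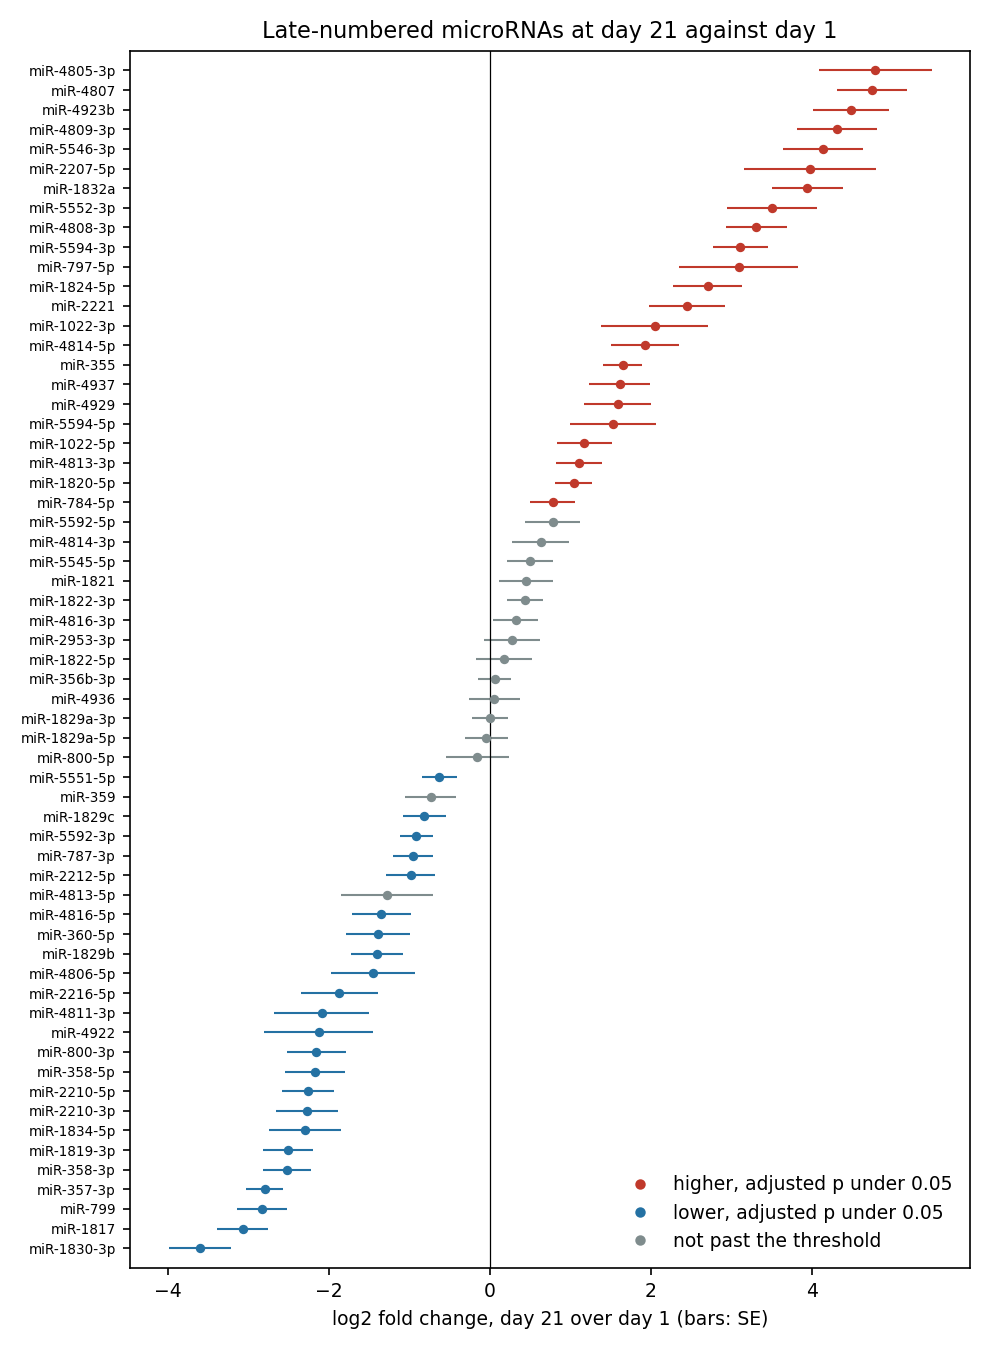
Log2 fold change at day 21 over day 1 (x axis, bars are SE) for each of the 61 tested late-numbered microRNAs, ordered by size (y axis), with color for the direction of those past an adjusted p of 0.05. Of the 61, 23 lie on each side past the threshold, from 4.79 for miR-4805-3p at the top to -3.60 for miR-1830-3p at the bottom.

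Against day 7, a smaller share of the members than of the whole table was called at days 14 and 21, a difference that was not tested. Calls between days 14 and 21 depended on the libraries kept. Between day 7 and day 14, 20 of the 61 members tested (32.8%) were called, 12 higher and 8 lower at day 14. Of the whole table, 41.2% was called (24.1% higher and 17.1% lower). With scaling by total counts the split was 9 higher and 11 lower. The count fell to 13 without day 7 replicate 3, to 13 without day 14 replicate 1, and was 17 without both day 14 replicate 1 and day 21 replicate 1. At day 21 against day 7, 26 of the 61 (42.6%) were called, 13 in each direction, beside a background of 52.2% (27.3% higher and 24.9% lower). At day 21 against day 14 no member and no microRNA of the table (0%) passed the adjusted threshold in edgeR, and none did in DESeq2, while 1 member had an unadjusted p under 0.05 in each tool. Without both libraries that lay among the other age, 33 of 249 microRNAs were called at day 21 against day 14, among them miR-1819-3p (log2 fold change -0.97, adjusted p = 0.0451), miR-2210-3p (-1.35, adjusted p = 0.031) and miR-797-5p (1.70, adjusted p = 0.0362). Since these libraries were picked out by their values on all microRNAs, this last comparison is not independent evidence of a difference.

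Sorted by course, 13 of the 61 (21.3%) were called higher at all 3 later ages than at day 1 and 12 (19.7%) lower at all 3, beside 18.4% and 15.5% of the whole table. A further 9 (14.8%) were called higher at days 14 and 21 only and 8 (13.1%) lower at days 14 and 21 only, beside 13.5% and 15.9%. These shares lie near those of the whole table. No member and no microRNA of the table (0%) was called in opposite directions at different ages against day 1. Over any age, 49 of the 61 (80.3%) differed, beside 74.3% of the whole table, and 7 (11.5%) were called in none of the 6 comparisons between ages, beside 15.1%. Of the 17 tested members from mir-4805 to mir-4938, 9 (52.9%) were higher and 4 (23.5%) lower at day 21 against day 1. The whole table had 35.1% higher and 35.9% lower. Their median log2 fold change was 1.11, and the 9 include miR-4807, miR-4808-3p, miR-4809-3p and miR-4923b from 1 stretch of X. Of the 7 tested from mir-353 to mir-392, 1 (14.3%) was higher and 4 (57.1%) were lower, with a median of -1.39. The 4 include miR-357-3p and both arms of the neighbouring mir-358. Whether these groups differ was not tested.

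A rise shared by neighbouring genes came from a stretch of the X chromosome. The genes mir-4807, mir-4808 and mir-4809 lie within 1239 bp, and mir-4923b lies 5935 bp further on beside mir-4925, mir-4923a and mir-4921, all on the plus strand and outside protein-coding genes, between positions 1872466 and 1880038 of X (WBcel235). miR-4807 had 1.86, 2.15 and 2.74 CPM at day 1, 8.77, 7.18 and 8.18 CPM at day 7, 80.2, 56.2 and 38.1 CPM at day 14, and 31.1, 93.8 and 60.0 CPM at day 21. Each step up to day 14 separated the libraries without overlap, and days 14 and 21 overlapped. Against day 1, its log2 fold change was 1.82 ± 0.41 (SE) at day 7 (adjusted p = 0.00271) and 4.75 ± 0.43 at day 21 (adjusted p = 3.75e-07).

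miR-4808-3p had 1.22, 0.977 and 2.21 CPM at day 1, 2.33, 2.51 and 1.98 CPM at day 7, 18.2, 16.5 and 11.5 CPM at day 14, and 9.90, 21.4 and 15.9 CPM at day 21. miR-4809-3p had 0.384, 0.586 and 0.475 CPM at day 1, 0.959, 1.25 and 0.660 CPM at day 7, 9.58, 7.54 and 3.38 CPM at day 14, and 5.67, 13.6 and 9.23 CPM at day 21. Neither passed the test at day 7 against day 1 (adjusted p = 0.306 and 0.167), and every library of days 14 and 21 lay above every earlier one. miR-4923b had 0.384, 0.586 and 0.158 CPM at day 1, 1.37, 1.94 and 1.32 CPM at day 7, 9.02, 7.54 and 4.12 CPM at day 14, and 6.09, 9.87 and 6.37 CPM at day 21, again with no overlap between day 1, day 7 and the older ages.

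The step between days 7 and 14 was of like size in the 4 microRNAs. On the log2 scale, day 14 against day 7 gave 2.85 ± 0.39 for miR-4807 (adjusted p = 0.000126), 2.75 ± 0.37 for miR-4808-3p (adjusted p = 0.000126), 2.79 ± 0.47 for miR-4809-3p (adjusted p = 0.000468) and 2.13 ± 0.40 for miR-4923b (adjusted p = 0.00124). Without day 14 replicate 1 and day 21 replicate 1 the same steps were 2.61, 2.67, 2.53 and 1.95, and each remained past the threshold. Within the old ages the same libraries were high in all 4, since day 14 replicate 1 and day 21 replicate 2 had the highest values of their ages and day 14 replicate 3 and day 21 replicate 1 the lowest. On the first principal component of all tested microRNAs, day 14 replicate 1 (16.74) and day 21 replicate 2 (16.37) were also the highest of their ages. The lowest there were day 14 replicate 2 (9.03) and day 21 replicate 1 (9.17). Whether the order is particular to the stretch was not tested. At day 21 against day 1, the log2 fold changes were 3.31 ± 0.38 for miR-4808-3p, 4.31 ± 0.49 for miR-4809-3p and 4.49 ± 0.47 for miR-4923b. The last was 3.87 without day 1 replicate 3, in which it had 0.158 CPM. The remaining members of the stretch were too rare to test, with 4 counts over all libraries for miR-4925, 9 for miR-4923a and 6 for miR-4921. The stretch also holds mir-2220 and mir-1018, which do not belong to the set. Their log2 fold changes at day 14 against day 7 were 2.35 ± 0.49 for miR-2220-3p (adjusted p = 0.00242) and 2.90 ± 0.55 for miR-1018 (adjusted p = 0.00128).

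**Figure D3:**
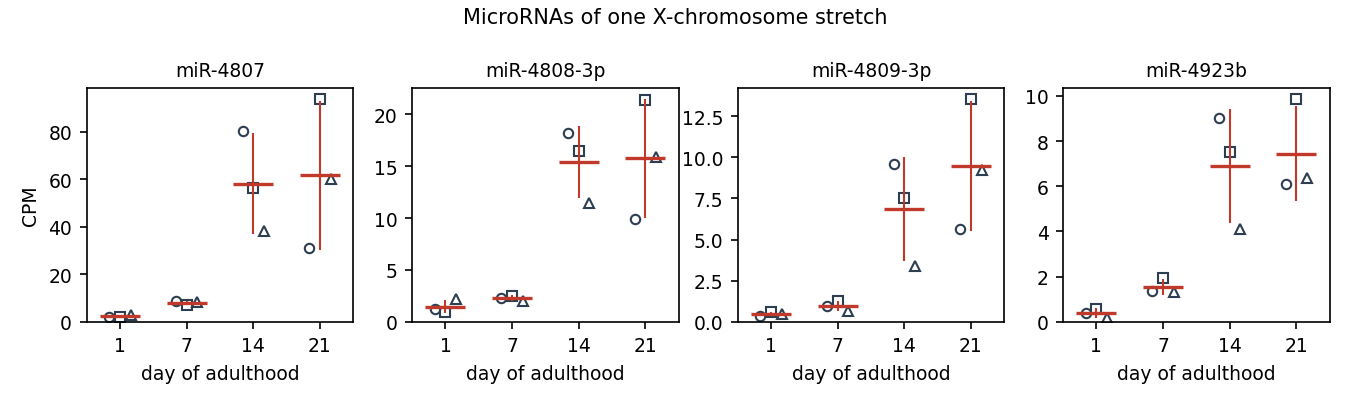
CPM (y axis, from 0) in each library of 4 microRNAs of the X-chromosome stretch, by day of adulthood (x axis). Circles, squares and triangles are replicates 1, 2 and 3, and red lines are the mean with its SD (n = 3). In all 4 the libraries of days 14 and 21 lie above those of days 1 and 7, as for miR-4807, which had at most 8.77 CPM by day 7 and at least 31.1 CPM from day 14.

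Other members had risen by day 7, and their later libraries overlapped. miR-1832a, from a hairpin on III in an intron of rsp-8 (a gene for an SR splicing factor), had 1.41, 3.52 and 1.48 CPM at day 1, 43.4, 29.3 and 62.4 CPM at day 7, 58.2, 59.1 and 35 CPM at day 14, and 28.2, 40.1 and 21.5 CPM at day 21. All later libraries were far above day 1 and overlapped each other. Against day 1, the difference was 4.53 ± 0.44 (SE) on the log2 scale at day 7 (adjusted p = 2.47e-06) and 3.94 ± 0.44 at day 21 (adjusted p = 2.33e-06). miR-5594-3p, from a hairpin on II in an intron of K12D12.4, had 0.961, 0.586 and 0.844 CPM at day 1, 8.08, 5.59 and 9.10 CPM at day 7, 8.46, 9.70 and 5.74 CPM at day 14, and 7.36, 8.20 and 6.53 CPM at day 21. Its libraries overlapped from day 7 on and lay above all of day 1, with log2 fold changes of 3.15 ± 0.34 at day 7 (adjusted p = 4.01e-06) and 3.11 ± 0.34 at day 21 (adjusted p = 2.06e-06), both against day 1.

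Several risers started from almost no counts. The filter on low counts asked for enough counts in as many libraries as an age has, whatever their age. These members, with miR-4805-3p and miR-2207-5p below, passed it through their later libraries. miR-5552-3p, from an intron of prp-6 (a gene for a splicing factor) on V, had 0.192, 0.195 and 0.105 CPM at day 1, 1.92, 1.71 and 4.09 CPM at day 7, 2.07, 2.31 and 2.21 CPM at day 14, and 1.52, 1.34 and 2.87 CPM at day 21. Its 44 counts at day 21 against 6 counts at day 1 gave a ratio of 12.1 with a 95% exact counting interval of 5.13 to 34.7. Its log2 fold change at day 7 against day 1 was 3.95 ± 0.54 (adjusted p = 3.6e-05), and 3.32 without day 7 replicate 3. miR-5546-3p, from an intron of arx-1 (a gene of the actin-nucleating Arp2/3 complex) on I, had 0.0640, 0.391 and 0.369 CPM at day 1, 3.01, 2.17 and 2.38 CPM at day 7, 4.32, 3.23 and 5.0 CPM at day 14, and 4.82, 2.84 and 6.37 CPM at day 21. The later ages lay above day 1 throughout, with a log2 fold change of 4.14 ± 0.50 at day 21 against day 1 (adjusted p = 5.04e-06), and of 3.53 without day 1 replicate 1.

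miR-4805-3p, from a hairpin on II outside protein-coding genes, had 78 counts at day 21, against 4 counts at day 1. The ratio per normalized count was 32.1, with a 95% exact counting interval of 12.1 to 121, which leaves out the spread between libraries. The fitted log2 fold change was 4.79 ± 0.70 (adjusted p = 3.19e-05), the highest of the 61 tested. It passed the filter on low counts only through libraries of days 14 and 21, so the filter and the rise share the same libraries. Its levels were 0.192, 0 and 0.0527 CPM at day 1, 0.411, 1.03 and 0.660 CPM at day 7, 1.31, 0.769 and 2.94 CPM at day 14, and 3.64, 1.5 and 4.14 CPM at day 21, with day 1 below all later libraries. The fitted value at day 21 ranged from 4.24 to 5.76 over the alternatives, with the highest without day 1 replicate 1. At day 14 against day 1 it was 3.91, with 4.88 without day 1 replicate 1 and 3.02 without day 14 replicate 3. At day 7 against day 1 it was 2.67 (adjusted p = 0.0198), with 3.60 without day 1 replicate 1. That call was lost without day 1 replicate 2 (2.32), day 1 replicate 3 (2.08), day 7 replicate 2 (2.11) or day 7 replicate 3 (2.59). miR-2207-5p, also from II outside protein-coding genes, had 35 counts at day 21, against 3 counts at day 1, 1 in each library. This gave a ratio of 19.2, with a 95% exact counting interval of 6.06 to 97.7, which again leaves out the spread between libraries. Its levels were 1.69, 2.34 and 0.159 CPM at day 21, against 0.0640, 0.195 and 0.0527 CPM at day 1, so that day 21 replicate 3 overlapped day 1 while the fit gave an adjusted p of 0.000582. Its difference at day 7 against day 1, 3.16 (adjusted p = 0.0107), missed the threshold without day 1 replicate 3 (2.69, adjusted p = 0.0629).

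The largest falls by day 7 were those of miR-799, miR-357-3p and miR-1817. mir-357 and mir-358 lie 206 bp apart on V, in an intron of symk-1 (a gene for a symplekin of the RNA 3-prime end cleavage machinery) on the opposite strand. miR-357-3p had 98.9, 92.4 and 117 CPM at day 1, 20.0, 23.0 and 18.7 CPM at day 7, 10.9, 14.3 and 15.9 CPM at day 14, and 14.1, 16.6 and 13.7 CPM at day 21. Day 1 stood apart from all later ages. The libraries of day 7 lay above those of days 14 and 21, but neither age differed from day 7 past the threshold. The log2 fold change was -2.32 ± 0.23 (SE) at day 7 (adjusted p = 2.48e-06) and -2.80 ± 0.23 at day 21 (adjusted p = 1.46e-07), both against day 1. Both arms of mir-358 fell with it. miR-358-3p had 1.61, 1.34 and 2.07 CPM at day 21, against 9.99, 7.23 and 11.3 CPM at day 1 (log2 fold change -2.52 ± 0.30, adjusted p = 4.81e-06). miR-358-5p had 2.37, 1.34 and 3.34 CPM at day 21, against 11.7, 6.84 and 12.9 CPM at day 1 (log2 fold change -2.17 ± 0.37, adjusted p = 0.000132). At day 7 against day 1 their log2 fold changes were already -1.77 ± 0.28 and -1.49 ± 0.35.

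miR-1817, from a hairpin on I outside protein-coding genes, had 100, 82.3 and 135 CPM at day 1, 22.6, 22.2 and 23.9 CPM at day 7, 8.08, 12.6 and 18.7 CPM at day 14, and 14.3, 9.37 and 14.0 CPM at day 21. Day 7 was close within its libraries and lay between day 1 and the older ages. Its log2 fold change was -3.07 ± 0.32 at day 21 against day 1 (adjusted p = 1.51e-06). miR-799, from a hairpin on X outside protein-coding genes, had 24.5, 36.1 and 34.5 CPM at day 1, 5.07, 6.5 and 7.25 CPM at day 7, 4.13, 6.92 and 4.12 CPM at day 14, and 5.59, 4.18 and 3.34 CPM at day 21. Every later library lay below every library of day 1, and neither day 14 nor day 21 differed from day 7 past the threshold. Against day 1, the log2 fold change was -2.33 ± 0.30 at day 7 (adjusted p = 2.14e-05) and -2.83 ± 0.31 at day 21 (adjusted p = 2.08e-06). miR-1819-3p, from a hairpin on X 66 bp from mir-2212, had 12.2, 9.03 and 7.00 CPM at day 21, against 36.2, 72.3 and 53.6 CPM at day 1 (log2 fold change -2.50 ± 0.31, adjusted p = 6.26e-06). Its neighbour miR-2212-5p, named for its place and not by its size, averaged 4.79 CPM at day 21, against 9.44 CPM at day 1 (log2 fold change -0.98, adjusted p = 0.0107). miR-1834-5p averaged 1.54 CPM at day 21, against 7.99 CPM at day 1 (log2 fold change -2.30 ± 0.45, adjusted p = 0.000388). At day 7 it was called at -1.32 against day 1, which missed the threshold without day 7 replicate 1 (-1.22, adjusted p = 0.0739), and at day 14 its -1.80 was -2.53 without day 14 replicate 2.

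**Figure D4:**
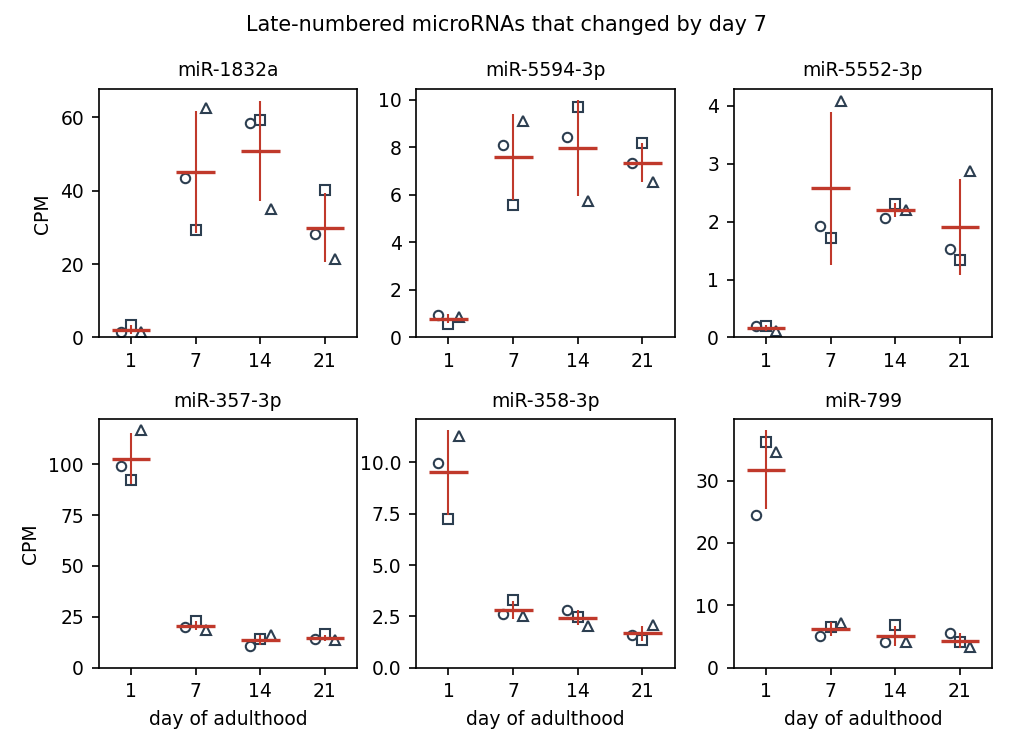
CPM (y axis, from 0) in each library of 6 late-numbered microRNAs that differed by day 7, by day of adulthood (x axis). Circles, squares and triangles are replicates 1, 2 and 3, and red lines are the mean with its SD (n = 3). The upper row stands low at day 1 and high after it, and the lower row the reverse, as for miR-357-3p, with at least 92.4 CPM at day 1 and at most 23.0 CPM later.

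A different set was not called at day 7 against day 1 and fell between days 7 and 14. miR-1830-3p, from an intron of paic-1 (a gene of purine synthesis) on II, had the largest fall at day 21 of the 61 tested. It had 22.4, 42.6 and 24.1 CPM at day 1, 18.6, 13.1 and 24.4 CPM at day 7, 3.38, 3.23 and 5.15 CPM at day 14, and 3.13, 2.51 and 1.43 CPM at day 21. Days 1 and 7 overlapped, and every library of the older ages lay below both. The log2 fold change was -0.66 ± 0.33 (SE) at day 7 against day 1 (adjusted p = 0.136), -2.24 ± 0.37 at day 14 against day 7 (adjusted p = 0.000447) and -3.60 ± 0.39 at day 21 against day 1 (adjusted p = 2.06e-06).

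Both arms of mir-2210, whose hairpin overlaps an exon of ZK593.2 on IV, followed this course. miR-2210-3p had 21.0, 45.1 and 24.6 CPM at day 1, 32.6, 27.9 and 28.2 CPM at day 7, 5.82, 14.0 and 8.82 CPM at day 14, and 8.89, 4.51 and 4.93 CPM at day 21. miR-2210-5p had 5.89, 5.08 and 6.75 CPM at day 1, 3.97, 5.59 and 5.28 CPM at day 7, 1.13, 1.69 and 1.91 CPM at day 14, and 1.61, 1.00 and 0.955 CPM at day 21. In both arms days 1 and 7 overlapped and the older ages lay below them. The log2 fold changes at day 14 against day 7 were -1.62 ± 0.38 for the 3p arm (adjusted p = 0.00402) and -1.63 ± 0.33 for the 5p arm (adjusted p = 0.00204).

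miR-4922, which the annotation gives a pair of hairpins on V, had 0, 0.769 and 0.294 CPM at day 14, against 1.92, 2.05 and 1.45 CPM at day 7. This gave a log2 fold change of -2.24 ± 0.68 (adjusted p = 0.0164), on 7 counts at day 14. That call was lost without day 7 replicate 2 (-2.09) or day 14 replicate 1 (-1.70), and the value was -3.31 without day 14 replicate 2. At day 21 it had 0.508, 0.167 and 0 CPM, against 1.02, 1.76 and 1.21 CPM at day 1, a log2 fold change of -2.12 ± 0.68 (adjusted p = 0.0124) that was -3.84 without day 21 replicate 1. On the rising side, miR-797-5p, from a hairpin on X 41 bp from mir-247, had 0.768, 0.586 and 0.580 CPM at day 1, 0.274, 0.228 and 0.791 CPM at day 7, 13.7, 1.08 and 2.79 CPM at day 14, and 3.64, 7.02 and 6.68 CPM at day 21. The older libraries lay above all earlier ones, but day 14 replicate 1 stood far above the other day 14 libraries. The log2 fold change at day 14 against day 1 was 3.10 ± 0.75 (adjusted p = 0.00215) and was 1.49 without that library, while at day 21 against day 1 it was 3.09 ± 0.74 (adjusted p = 0.00185). At day 14 against day 7 it was 3.71, and was 2.24 without day 14 replicate 1 and 4.44 without day 7 replicate 3. At day 21 against day 7 it was 3.70, and 4.44 without day 7 replicate 3.

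**Figure D5:**
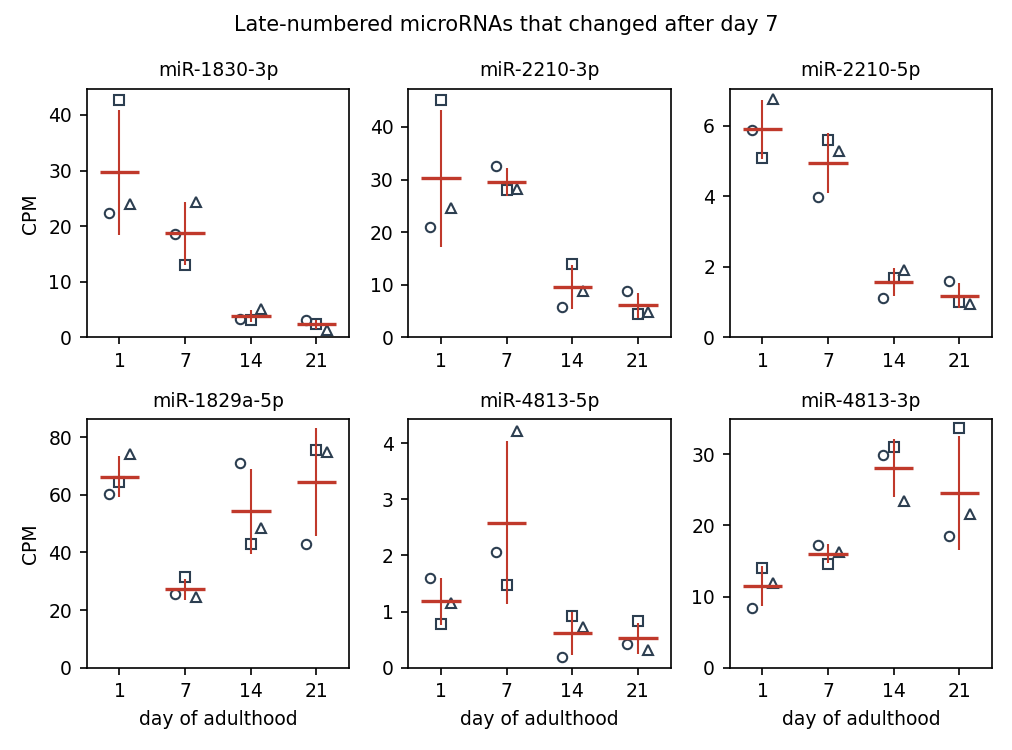
CPM (y axis, from 0) in each library of 6 late-numbered microRNAs that differed between days 7 and 14, by day of adulthood (x axis). Circles, squares and triangles are replicates 1, 2 and 3, and red lines are the mean with its SD (n = 3). miR-1830-3p and both arms of mir-2210 drop after day 7, miR-1829a-5p is low at day 7 alone, and the arms of mir-4813 part ways, with at most 0.923 CPM for the 5p arm and at least 18.4 CPM for the 3p arm from day 14 on.

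Of the 49 members that differed over any age, 24 had a mean at day 7 or day 14 outside those of days 1 and 21. That count uses means alone, so a small excess over day 21 is included, and it was not made for the whole table. In 3 of the 61 tested (4.92%), beside 3.67% of the whole table, a call at day 7 against day 1 was followed by a call in the opposite direction at day 14 or day 21 against day 7. The first, miR-1829a-5p, from an intron of gas-1 (a gene for a subunit of mitochondrial complex I) on X, had 60.3, 64.5 and 74.2 CPM at day 1, 25.6, 31.4 and 24.7 CPM at day 7, 71.0, 43.1 and 48.5 CPM at day 14, and 42.9, 75.6 and 75.0 CPM at day 21. The day 7 libraries lay below all others, and days 1, 14 and 21 overlapped. The log2 fold change was -1.28 ± 0.27 (SE) at day 7 against day 1 (adjusted p = 0.0018) and 1.24 ± 0.27 at day 21 against day 7 (adjusted p = 0.00202). The related names miR-1829b and miR-1829c had other courses, with log2 fold changes at day 21 against day 1 of -1.40 and -0.81 (adjusted p = 0.00141 and 0.0147), although reads shared by near-identical microRNAs could have been split among them in counting. miR-4936, chosen after its values were seen, averaged 9.95 CPM at day 1, 22.3 CPM at day 7, 12.3 CPM at day 14 and 10.2 CPM at day 21, with a log2 fold change of 1.15 at day 7 against day 1 (adjusted p = 0.00999) and of -1.10 at day 21 against day 7 (adjusted p = 0.0104). The third, miR-5594-5p, had 0.128, 0.391 and 0.369 CPM at day 1, 1.78, 1.48 and 3.30 CPM at day 7, 0.939, 1.54 and 1.18 CPM at day 14, and 0.846, 0.836 and 0.796 CPM at day 21. Its day 21 libraries lay between those of days 1 and 7 without overlap. It was called at 2.91 ± 0.47 at day 7 against day 1 (adjusted p = 0.00018) and at -1.38 ± 0.43 at day 21 against day 7 (adjusted p = 0.0159), and the second call was lost without day 7 replicate 3 (-0.94) or day 21 replicate 2 (-1.28).

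In 11 hairpins both arms had enough counts to be tested, and the 6 most abundant of these were compared by the ratio of the 5p to the 3p arm across the 4 ages. An exact permutation test over the 12 libraries, added after the values were seen and adjusted over the 6 hairpins, passed the threshold for mir-4813 and mir-5592 (adjusted p = 0.0242 each). The ratio was not tested in the other hairpins. Their mean log2 ratios at days 1 and 21 were -2.87 and -0.64 for mir-800, -1.94 and -0.43 for mir-4814, and -0.34 and -2.07 for mir-4816. They were -1.42 and -3.05 for mir-5594, and 0.11 and 0.41 for mir-358. In mir-4813, whose hairpin overlaps an exon of idhg-1 (isocitrate dehydrogenase) on III, the mean log2 ratio was -3.24 ± 0.82 on day 1, -2.74 ± 0.71 on day 7, -5.51 ± 1.06 on day 14 and -5.43 ± 0.30 on day 21 (SD, n = 3 each). The 3p arm had 29.9, 30.9 and 23.4 CPM at day 14, against 17.3, 14.6 and 16.2 CPM at day 7 (log2 fold change 0.81 ± 0.28, adjusted p = 0.0313). The 5p arm had 0.188, 0.923 and 0.735 CPM at day 14, against 2.06, 1.48 and 4.22 CPM at day 7 (log2 fold change -1.99 ± 0.55, adjusted p = 0.0104). The arms thus moved in opposite directions between these ages. The ratio of mir-4813 at day 14 rests on few counts, since its 5p arm had at most 0.923 CPM there. The 5p call was lost when day 7 replicate 3 (-1.42) or day 14 replicate 1 (-1.55) was left out and when the pair of day 14 replicate 1 with day 21 replicate 1 was (-1.54), with adjusted p of 0.074, 0.0573 and 0.0542. The 3p call was lost when day 7 replicate 1 (0.83) or day 7 replicate 2 (0.78) was left out, with scaling by total counts (0.58) and with no filter on low counts (0.70), with adjusted p of 0.0534, 0.0535, 0.0585 and 0.0813.

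In mir-5592 the 3p arm was lower at each later age than at day 1, as given above for day 21, while the 5p arm had 12.7, 16.9 and 16.4 CPM at day 21, against 6.99, 5.59 and 3.96 CPM at day 7 (log2 fold change 1.47 ± 0.36, adjusted p = 0.00359). The mean log2 ratio of 5p to 3p was -4.56 ± 0.53 on day 1, -4.57 ± 0.26 on day 7, -3.28 ± 0.73 on day 14 and -2.81 ± 0.31 on day 21, so the 3p arm remained the abundant arm at each age. As mir-5592-1 and mir-5592-2 carry the same counts, the ratio cannot be assigned to either hairpin. For mir-1829a the ratio did not pass (adjusted p = 0.0619), with means of 0.63 ± 0.19 on day 1, -0.15 ± 0.28 on day 7, 0.41 ± 0.29 on day 14 and 0.56 ± 0.21 on day 21. For mir-1022, mir-1822 and mir-2210 the exact permutation test gave an adjusted p of 0.81 each. In mir-1022 both arms rose, and the 5p arm held a mean log2 ratio of 8.13 ± 0.74 at day 1 and 7.42 ± 0.93 at day 21. The rise of its 3p arm at day 21 against day 1 (2.05 ± 0.66, adjusted p = 0.0132) rested on few counts, and the call was lost without day 1 replicate 3 (1.62), day 21 replicate 2 (1.78) or day 21 replicate 3 (1.61). Its call at day 14 against day 1 (1.96 ± 0.68, adjusted p = 0.0201) was lost with scaling by total counts (1.62) and without day 1 replicate 2 (1.83), day 1 replicate 3 (1.54), day 14 replicate 2 (1.87) or day 14 replicate 3 (1.30). Both arms of mir-5594 were higher at day 21 than at day 1, but the call of the 5p arm (1.53 ± 0.53, adjusted p = 0.0186) was lost without day 1 replicate 1 (1.03), day 21 replicate 1 (1.39) or day 21 replicate 3 (1.41), and without both day 14 replicate 1 and day 21 replicate 1 (1.39).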

How the data were processed

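Small RNA of whole worms was sequenced with Illumina technology. Per the labels and the paper's methods, the authors aligned reads with TopHat to WBcel215, assigned them to known microRNAs with miRDeep and compared ages with DESeq; versions are not given in the sources used here. The deposited table holds counts per mature microRNA and library, and CPM that the authors computed from them, which matched count over library total within 0.005 CPM. The authors' own comparisons (fold changes and p-values) were not used. A line naming no microRNA held 0 counts. Of 375 lines, 7 microRNAs, 4 of them late-numbered, stood on more than 1, and the line with the largest total was kept.

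Counts were analysed in R 4.3.3 with edgeR 4.0.16: filterByExpr by age (minimum count 10), TMM, and a quasi-likelihood model of all 12 libraries in which age is the sole factor (8 residual degrees of freedom), with Benjamini-Hochberg adjustment over 245 microRNAs and a threshold of 0.05. The SE of a log2 fold change was worked back from the test, as its size over the square root of the quasi-likelihood F statistic. CPM in the text are TMM-normalized and were not divided by length, since mature microRNAs are of nearly the same length. Replicates differed well beyond counting noise (smallest chi-square over its degrees of freedom 191), so no libraries were merged. The numbers 1 to 3 recur at every age in the labels, which do not say that a number marks a shared cohort. Deviations of same-numbered libraries from their age means correlated between days 21 and 1 (r = 0.217, 0.415 and 0.413 across microRNAs), so the numbers may pair the libraries of these ages. In each other comparison at least 1 of the 3 pairs had r under 0.1. The tests in the text do not pair libraries by number, also not for days 21 and 1. A replicate block was fitted only as an alternative, given below. Counting intervals and floors (3 counts) cover counting error only, since reads carried no molecular identifiers.

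Members named with values were the 8 most abundant; among called members, the 10 largest rises and 10 largest falls at day 21 against day 1 and up to 3 rises and 3 falls per other comparison; up to 5 with an extreme at a middle age; and up to 6 hairpins with both arms tested. This gave 38. Members and lists were chosen with earlier results of these data known. Positions are from the Ensembl annotation of WBcel235, matched by name. Alternatives were RLE factors, total-count scaling, no filter or a floor of 10 counts per library, the DESeq2 1.42.0 test, only the 2 ages compared, a replicate block, summed lines, other detection minimums and each library left out. Leaving out day 14 replicate 1 together with day 21 replicate 1 was added after seeing the data. The arm ratios were taken from counts with a small constant added to each, and were tested by exact permutation (two-sided, 15400 regroupings).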

Additional observations from a re-analysis of the deposited data

How the results depend on the processing

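Requiring at least 10 counts in every library left 33 members to test, and then 15, 19 and 22 were called at days 7, 14 and 21 against day 1. Of these, 5, 6 and 8 were higher and 10, 13 and 14 lower, so the near-even split of the main fit was not kept. A member that is rare at any age fails this floor, also one that rises from few counts. Against day 7, 13 were called at day 14 and 13 at day 21, and 24 were called over any age. Shares of the whole table under this floor and under the replicate block were not worked out. With each library left out in turn, the counts against day 1 ranged from 23 to 31 for day 7, from 39 to 44 for day 14 and from 43 to 49 for day 21, those against day 7 from 13 to 20 for day 14 and from 20 to 31 for day 21, and that over any age from 47 to 52. Without both day 14 replicate 1 and day 21 replicate 1, 3 were called at day 21 against day 14. Same-numbered libraries deviated together in all 3 pairs of days 21 and 1 but not in all 3 pairs of any other comparison, and 3 of the 12 correlated best with their own number. A fit with the replicate block called 27, 43 and 47 at days 7, 14 and 21 against day 1, 20 and 25 at days 14 and 21 against day 7, 0 at day 21 against day 14, and 49 over any age. At day 21 against day 1 the 47 include the 46 called without the block.

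Detection depends on the minimum. The mean number of members detected was 95.3, 91.0, 91.3 and 94.7 at days 1, 7, 14 and 21, but 73.7, 74.7, 71.7 and 74.0 at 3 counts and 54.7, 54.3, 51.0 and 54.7 at 10 counts. At the smallest library total it was 89.4 at day 14. Leaving out a library gave 92.5 to 100.5, 89.0 to 92.5, 90.5 to 92.0 and 93.0 to 97.0. The mean share of counts was 0.263% at day 1 and 0.218% at day 7 with summed lines, and 0.220% at day 1 and 0.249% at day 14 as a sum of TMM-normalized CPM, so that the order of days 1 and 14 turns with the scaling. Leaving out a library gave 0.236% to 0.244%, 0.199% to 0.208%, 0.211% to 0.235% and 0.213% to 0.229%.

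Of 112 called changes of named members, 95 stayed past the threshold under each of the 21 alternatives that tested them, 17 were lost under some and 0 reversed. A member that an alternative filtered out has no value there and counts as kept. Only 33 members were tested at the floor of 10 counts per library. Besides those given in the report, the calls of miR-1820-5p at days 14 and 21 against day 7, miR-5592-5p at day 14 against day 7, and miR-4922 at day 14 against day 1 were lost under several alternatives. That of miR-1817 at day 21 against day 7 was lost under many. The call of miR-1822-3p at day 14 against day 1 (0.58, adjusted p = 0.0343) was lost under most of the 21. With scaling by total counts it was 0.28 (adjusted p = 0.315). The 77 members that did not pass the filter on low counts have no test here, and for the 17 with no counts a level under the limit given above cannot be told from absence.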

Other observations

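Some of the 77 members under the filter had uneven counts, given here as values with no test. They were picked by these counts, outside the rule for named members, so they do not stand for the 77. miR-5548-3p had 0 counts at days 1 and 7, 6 counts over the 3 libraries of day 14 and 3 counts over those of day 21. miR-5547-3p had 29 counts on day 1, 9 on day 7, 6 on day 14 and 2 on day 21. miR-2218b-3p had 7 counts on day 1, 28 on day 7, 7 on day 14 and 18 on day 21. miR-1830-5p, the rare arm of the hairpin of miR-1830-3p, had 49 counts on day 1, 18 on day 7, 8 on day 14 and 8 on day 21. miR-5552-5p, the rare arm of the hairpin of miR-5552-3p, had 8 counts on day 1, 24 on day 7, 20 on day 14 and 24 on day 21. Library totals differed between ages, so these are counts and not levels.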
